A study of Caenorhabditis elegans with 3 samples.

Results

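The yolk protein genes of Caenorhabditis elegans (vit genes) were followed by their symbols vit-1, vit-2, vit-3, vit-4 and vit-6 through 3 polyA RNA libraries of young adult worms. These 5 genes are among 10168 genes given in either deposited table, and all 5 are given in both tables. vit-5, the remaining yolk gene, is listed in neither table under its symbol or its sequence name, and it is not analysed here. The libraries came from animals of the fem-1 strain fed dcr-1 RNAi, drsh-1 RNAi or a mock control, with 1 library in each group and all 3 labelled 2.5 d. dcr-1 encodes Dicer and drsh-1 encodes Drosha, the RNase III enzymes of microRNA maturation. All groups share the fem-1 background, which the labels use because worms lacking dcr-1 are sterile, so that the control animals are sterile too. The allele, the growth temperature and the number of animals pooled in a library are not given in the labels. FEM-1 promotes male cell fates, including sperm, and feminised animals form oocytes that are not fertilised.

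Yolk is the main protein store of the oocyte. In the adult hermaphrodite the intestine transcribes the vit genes at very high levels and secretes the proteins with bound lipid into the body cavity, from which growing oocytes take them up through the receptor RME-2. vit-1 to vit-5 lie on the X chromosome and encode the large yolk proteins of the YP170 class, within which the vit-1 and vit-2 products form one subclass and the vit-3, vit-4 and vit-5 products the other. vit-6 is autosomal, and its product is cut into the smaller yolk proteins YP115 and YP88. Because vit genes of a subclass are nearly identical in sequence, reads can be assigned to the wrong one, and the level of a single YP170 gene is less certain than the level of its pair.

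Levels are FPKM, fragments counted per kilobase of a transcript and scaled to the mapped total, which allows genes to be compared with each other within a library. A log2 ratio is that of (FPKM + 1) throughout. With 1 library per group, no difference has a replicate check, and neither a p-value nor an error can be given. Genes at least 2-fold apart by the ratio of (FPKM + 1) are counted as a description of size only. Every gene in a table is above 2 FPKM in both of its libraries, so ranks at both ends leave out genes below that in either library. The tables hold no counts from which depth or a detection limit could be had. Both targeted genes were lower in the library meant to deplete them. dcr-1 was at 23.8 FPKM in dcr-1 RNAi, against 36.8 FPKM in mock. drsh-1 was at 20.9 FPKM in drsh-1 RNAi, against 32.0 FPKM for mock in the same table and 26.2 FPKM for mock in the dcr-1 table. Of 16 sperm markers 3 were listed in the dcr-1 table and 2 in the drsh-1 table, none above 8.03 FPKM.

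In dcr-1 RNAi the yolk genes split into a group far above mock and a group far below it. vit-1, vit-3 and vit-4 were higher by 2.64 to 3.75 on the log2 scale, whereas vit-2 and vit-6 were lower. In drsh-1 RNAi the same 3 genes were higher by smaller amounts, 1.51 to 2.08, and vit-2 and vit-6 lay close to mock. The mock value of each of the 5 genes is the same in both tables, so the 3 libraries can be read side by side for every one of them.

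**Figure D1:**
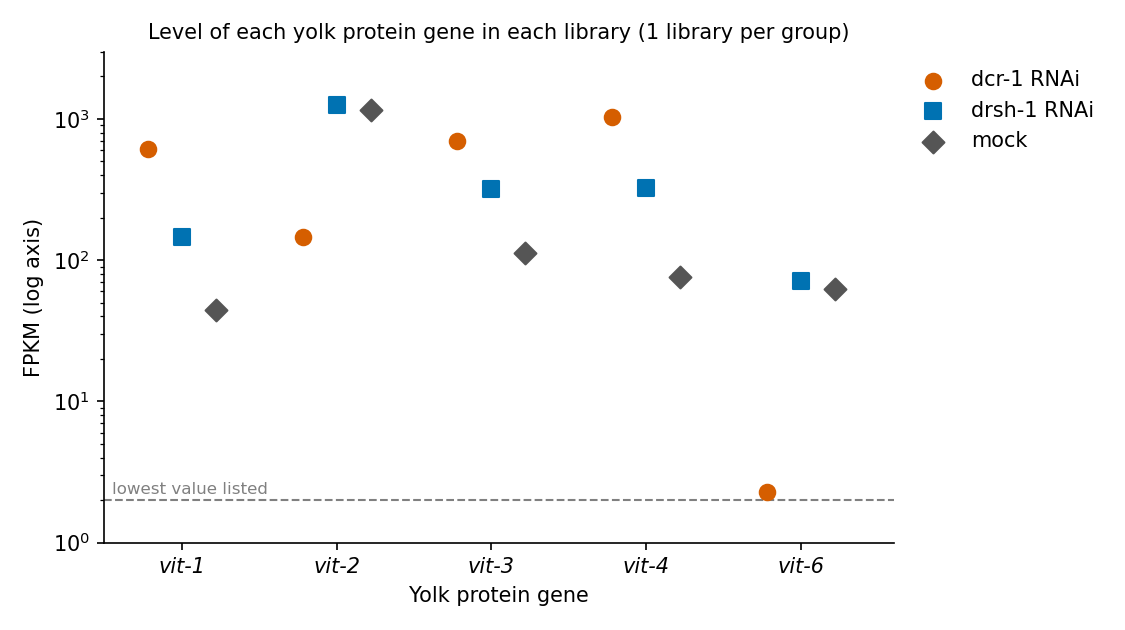
FPKM (log axis) of each yolk gene in the dcr-1 RNAi, drsh-1 RNAi and mock libraries, 1 point per library, with a dashed line at the lowest value listed in the tables, 2 FPKM. vit-1, vit-3 and vit-4 are ordered dcr-1 RNAi over drsh-1 RNAi over mock, whereas vit-2 and vit-6 have the dcr-1 RNAi library lowest.

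vit-1 was at 612 FPKM in dcr-1 RNAi, 146 FPKM in drsh-1 RNAi and 44.6 FPKM in mock. It was the least abundant of the 5 genes in mock and the third most abundant in dcr-1 RNAi. Its log2 ratio to mock was 3.75 in dcr-1 RNAi, the 13th highest of 9631 genes, and 1.68 in drsh-1 RNAi, the 46th highest of 9996 genes.

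vit-4 was at 1029.6 FPKM in dcr-1 RNAi, 326 FPKM in drsh-1 RNAi and 76.4 FPKM in mock. It became the most abundant listed yolk gene in dcr-1 RNAi. By level it stood 109th of 9631 genes in dcr-1 RNAi, against 1984th for the mock library in that table. Its log2 ratio to mock was 3.74 in dcr-1 RNAi, 14th highest, and 2.08 in drsh-1 RNAi, 18th highest.

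vit-3, the neighbour of vit-4 on the X chromosome, was at 703 FPKM in dcr-1 RNAi, 319.9 FPKM in drsh-1 RNAi and 112 FPKM in mock. The order of the libraries was the one seen for vit-1 and vit-4, with smaller distances between them. Its log2 ratio to mock was 2.64 in dcr-1 RNAi, 46th highest, and 1.51 in drsh-1 RNAi, 63rd highest.

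vit-2 was at 147 FPKM in dcr-1 RNAi, 1249.9 FPKM in drsh-1 RNAi and 1165 FPKM in mock. It was by far the most abundant of the 5 genes in mock and in drsh-1 RNAi, and it lay below vit-4, vit-3 and vit-1 in dcr-1 RNAi. By level it stood 935th of 9631 genes in dcr-1 RNAi, against 62nd for mock, and 57th of 9996 genes in drsh-1 RNAi. Its log2 ratio to mock was -2.98 in dcr-1 RNAi, the 17th lowest, and 0.10 in drsh-1 RNAi.

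vit-6 was at 2.29 FPKM in dcr-1 RNAi, 71.2 FPKM in drsh-1 RNAi and 62.2 FPKM in mock. Its level in dcr-1 RNAi is just above the smallest value the table holds, and only vit-6 among the 5 genes came near that limit. Its log2 ratio to mock was -4.26 in dcr-1 RNAi, the third lowest of 9631 genes, and 0.19 in drsh-1 RNAi. Genes under 2 FPKM are not listed, so any that fell further are missing from this rank. At the level of vit-6 in dcr-1 RNAi the pseudocount matters, and with 5 FPKM added in place of 1 the ratio was -3.20. vit-6 is the sole member of its class, so that its value does not rest on dividing reads among near-identical vit genes.

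In dcr-1 RNAi against mock, 3 of 5 yolk genes were at least 2-fold higher, where 6.71% of all genes were, and 2 of 5 were at least 2-fold lower, where 6.53% of all genes were. The median log2 ratio was 2.64 for the yolk genes and 0.06 for all 9631 genes. The middle 95% of all genes ran from -1.53 to 1.48, and each of the 5 yolk genes lay outside it. The distance between the highest and the lowest yolk gene was 8.01 on the log2 scale. That median rests on counting the members of a pair separately. With vit-1 summed with vit-2, and vit-3 with vit-4, a choice made after the data were seen, the median was -0.67.

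In drsh-1 RNAi against mock, 3 of 5 yolk genes were at least 2-fold higher, where 1.91% of all genes were. None was at least 2-fold lower (0 of 5), where 1.59% of all genes were. The median log2 ratio of the yolk genes was 1.51, against 0.00 for all genes, and the distance between the highest and the lowest was 1.98. The middle 95% of all 9996 genes ran from -0.82 to 0.89, with vit-2 and vit-6 inside it. With the pairs summed the median was 0.21. Both comparisons use the one mock library, so a deviation of that library would enter both.

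**Figure D2:**
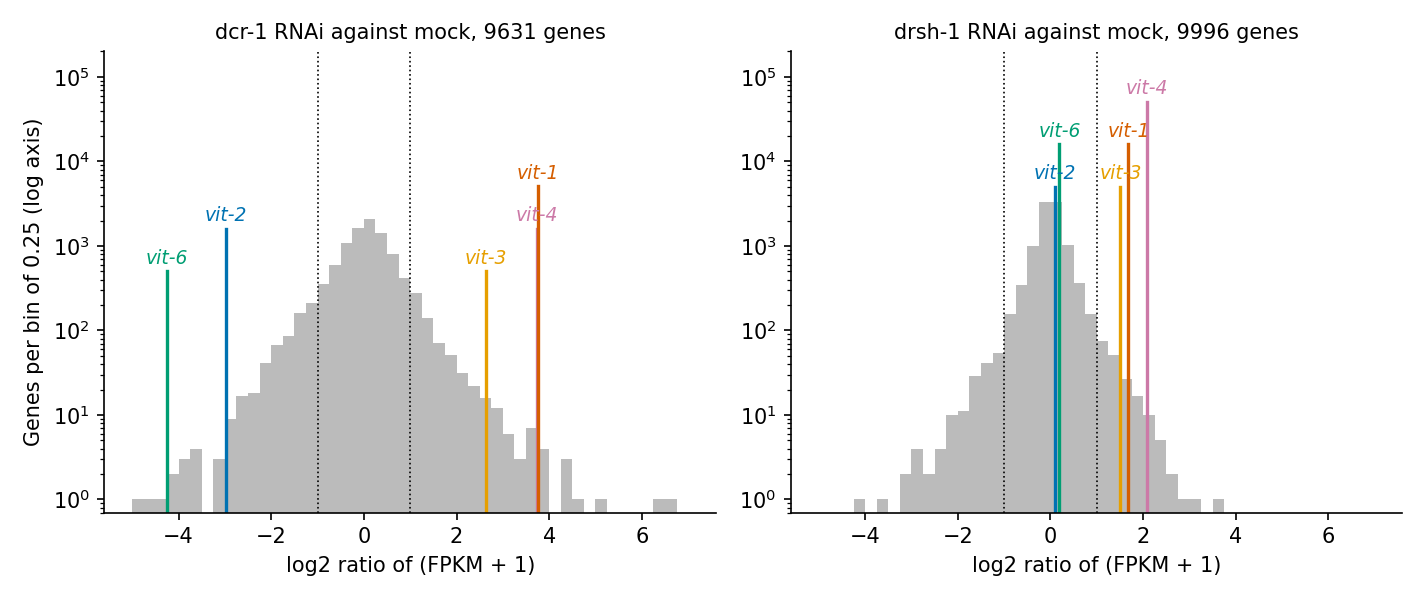
Histograms of the log2 ratio of (FPKM + 1) for all genes of each table (bins of 0.25, log axis for the number of genes), dcr-1 RNAi against mock on the left and drsh-1 RNAi against mock on the right, with a coloured line for each yolk gene and dotted lines at 2-fold. In dcr-1 RNAi the yolk genes occupy both ends of the distribution. In drsh-1 RNAi vit-2 and vit-6 lie inside the middle 95% of all genes, above the median.

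The ratio of dcr-1 RNAi to drsh-1 RNAi does not use the mock values. They do set which genes are covered, the 9043 genes with equal mock values in both tables. The genes vit-1 (2.064), vit-4 (1.66) and vit-3 (1.13) stood at least 2-fold higher in dcr-1 RNAi, where 4.29% of genes were. vit-2 (-3.08) and vit-6 (-4.45) were at least 2-fold lower, where 5.78% of genes were. vit-6 had the lowest of all 9043 ratios and vit-2 the ninth lowest. The vit-3 ratio was 0.91 with the libraries scaled to the same summed FPKM, which takes it under 2-fold and leaves 2 genes higher. The median of the 5 genes was 1.13, against 0.06 for all genes, and -0.88 with the pairs summed.

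Ratios between yolk genes within a library do not depend on how the libraries were scaled to each other. The FPKM of vit-1 over that of vit-2 was 4.17 in dcr-1 RNAi, 0.116 in drsh-1 RNAi and 0.0383 in mock. vit-1 and vit-2 therefore exchanged rank in dcr-1 RNAi. By contrast, vit-1 over vit-4 was 0.595 in dcr-1 RNAi, 0.447 in drsh-1 RNAi and 0.584 in mock. These genes of different subclasses stood in nearly the same proportion in dcr-1 RNAi and in mock. vit-3 over vit-4 was 0.683 in dcr-1 RNAi, 0.982 in drsh-1 RNAi and 1.46 in mock. vit-6 over vit-2, the pair that was lower in dcr-1 RNAi, was 0.0156 in dcr-1 RNAi, 0.0570 in drsh-1 RNAi and 0.0534 in mock.

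The summed level of the 5 yolk genes differed less between libraries than its make-up. It was 2493.6 FPKM in dcr-1 RNAi, 2112.3 FPKM in drsh-1 RNAi and 1459.9 FPKM in mock, which is 1.71 and 1.45 times mock in the RNAi libraries. vit-2 made up 5.88% of the sum in dcr-1 RNAi, 59.2% in drsh-1 RNAi and 79.8% in mock. vit-4 made up 41.3% in dcr-1 RNAi, 15.4% in drsh-1 RNAi and 5.23% in mock. vit-5, which would belong to the vit-3 and vit-4 subclass, is not in these sums.

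**Figure D3:**
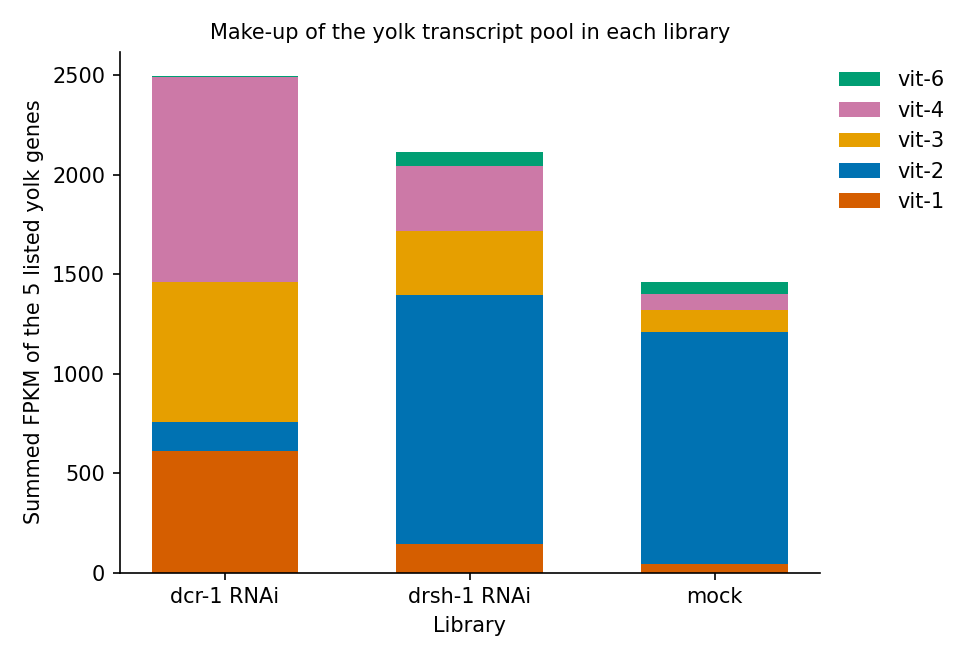
Summed FPKM of the 5 listed yolk genes in the dcr-1 RNAi, drsh-1 RNAi and mock libraries, with the bar divided by gene. vit-2 fills most of the bar in drsh-1 RNAi (59.2%) and mock (79.8%), and vit-3, vit-4 and vit-1 fill most of it in dcr-1 RNAi.

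Summing near-identical genes gives a level that does not depend on how reads were divided within a pair. vit-1 with vit-2 summed to 759 FPKM in dcr-1 RNAi, 1395.5 FPKM in drsh-1 RNAi and 1209.7 FPKM in mock, which is 0.627 times mock in dcr-1 RNAi and 1.15 times mock in drsh-1 RNAi. The opposite ratios of vit-1 and vit-2 thus came down to a smaller difference of the pair, below 2-fold in both RNAi libraries. vit-3 with vit-4 summed to 1732.5 FPKM in dcr-1 RNAi, 646 FPKM in drsh-1 RNAi and 188 FPKM in mock, which is 9.21 and 3.43 times mock. Both ratios of this pair lie between those of vit-3 and vit-4 taken singly. vit-5, of the same subclass as vit-3 and vit-4, is not listed, so the sum of that pair could still depend on reads shared with vit-5. How reads were divided among vit-1, vit-2 and the other vit genes was not tested.

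The intestine is the source of yolk, and its markers also lay on both sides of mock in dcr-1 RNAi. Of 15 intestine markers 13 were listed, 3 of them higher and 3 lower by 2-fold or more in dcr-1 RNAi, where 6.71% and 6.53% of all genes were. Their median log2 ratio was 0.56, against 0.06 for all genes. The intestinal actin gene act-5 was at 146 FPKM in dcr-1 RNAi, 48.2 FPKM in drsh-1 RNAi and 24.7 FPKM in mock. The cathepsin B gene cpr-1 was at 181 FPKM in dcr-1 RNAi, 593 FPKM in drsh-1 RNAi and 1030.4 FPKM in mock. The gut esterase gene ges-1 was at 4.70 FPKM in dcr-1 RNAi, 16.05 FPKM in drsh-1 RNAi and 12.8 FPKM in mock. The summed level of the listed markers was 1822 FPKM in dcr-1 RNAi against 1879.6 FPKM in mock. In the drsh-1 table it was 1789.6 FPKM in drsh-1 RNAi against 1881.7 FPKM in mock, although 11 of the 13 markers were above mock there, with a median log2 ratio of 0.20. cpr-1 was 1 of the 2 below mock. pept-1 and pho-1 were not listed in either table. In RNA of whole animals, fewer cells of a type and less RNA per cell cannot be told apart, and the part of the intestine markers in the yolk gene differences was not tested.

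In dcr-1 RNAi each listed gene that controls, secretes or takes up yolk differed from mock less than any yolk gene taken singly. With vit-1 and vit-2 summed this did not hold. The log2 ratio of that pair was -0.67, and genes such as rsks-1 (-1.86) lay further from mock. In drsh-1 RNAi each pathway gene differed less than vit-1, vit-3 and vit-4 taken singly. Not all differed less than vit-2, vit-6 or the summed vit-1 and vit-2 (0.21). The 3 lists hold 63 genes, of which 54 were listed in the dcr-1 table and 57 in the drsh-1 table. In dcr-1 RNAi 5 were higher and 5 lower than mock by 2-fold or more, near the shares over all genes of 6.71% and 6.53%. In drsh-1 RNAi 0 were 2-fold apart in either direction with 1 FPKM added, where 1.91% of all genes were higher and 1.59% lower. In FPKM itself lin-14 was lower by more than 2-fold in drsh-1 RNAi, near the smallest value listed, and tfg-1 was higher by just over 2-fold in dcr-1 RNAi. For 7 of the genes the mock values differ between the tables. Where FPKM values of such a gene are given, the table they come from is named.

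**Figure D4:**
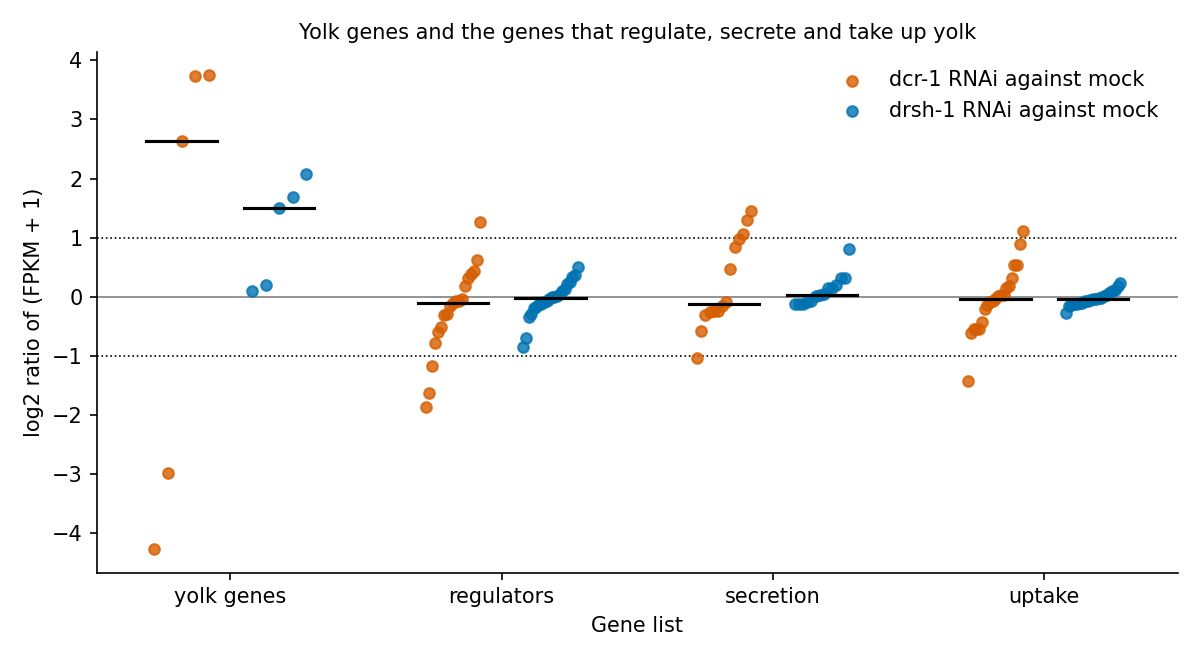
log2 ratio of (FPKM + 1) for each listed gene of the yolk genes, their regulators, and the secretion and uptake lists, dcr-1 RNAi against mock left and drsh-1 RNAi against mock right in each list, with the median as a bar and dotted lines at 2-fold. In both comparisons the medians of the 3 pathway lists lie near 0, between -0.12 and 0.03. The yolk gene medians are 2.64 and 1.51, and were -0.67 and 0.21 with vit-1 summed with vit-2 and vit-3 with vit-4.

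Among 19 of 26 listed regulators in dcr-1 RNAi, 1 was higher and 3 were lower by 2-fold or more, beside 6.71% and 6.53% of all genes. Their median was -0.10, against 0.06 for all genes. The transcription factors of the intestine differed in size. elt-2, the GATA factor that maintains intestinal gene expression, was at 5.49 FPKM in dcr-1 RNAi, 6.89 FPKM in drsh-1 RNAi and 5.81 FPKM in mock. unc-62, a Meis-class homeobox gene required for vit expression, stood at a log2 ratio of -0.03 with dcr-1 RNAi and -0.07 with drsh-1 RNAi. Its level differed between the tables, at 10.6 FPKM in dcr-1 RNAi against 10.88 FPKM in mock in the dcr-1 table. In the drsh-1 table unc-62 was at 4.94 FPKM in drsh-1 RNAi against 5.22 FPKM in mock. ceh-60, the gene of its PBX-class partner, was at 3.07 FPKM in dcr-1 RNAi, 5.37 FPKM in drsh-1 RNAi and 5.96 FPKM in mock (-0.77 in dcr-1 RNAi). pqm-1, a zinc finger factor gene acting with TORC2 signalling on vit expression, was at 3.95 FPKM in dcr-1 RNAi, 9.24 FPKM in drsh-1 RNAi and 10.1 FPKM in mock (-1.17 in dcr-1 RNAi). Both elt-2 and unc-62 were thus near mock in dcr-1 RNAi, while pqm-1 was below it by more than 2-fold.

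Kinase genes of the insulin and TOR pathways lay on both sides of mock. sgk-1, whose product acts downstream of TORC2, was at 18.6 FPKM in dcr-1 RNAi, 9.30 FPKM in drsh-1 RNAi and 7.12 FPKM in mock. It was the only regulator at least 2-fold higher in dcr-1 RNAi (1.27). rict-1, the Rictor gene of TORC2, listed by its sequence name, had -0.30 with dcr-1 RNAi and -0.03 with drsh-1 RNAi. rsks-1, encoding the S6 kinase downstream of TORC1, was at 18.9 FPKM in dcr-1 RNAi, 73.8 FPKM in drsh-1 RNAi and 71.0 FPKM in mock (-1.86 in dcr-1 RNAi). akt-1, the Akt kinase gene of insulin signalling, was at 8.15 FPKM in dcr-1 RNAi, 23.8 FPKM in drsh-1 RNAi and 27.2 FPKM in mock (-1.63 in dcr-1 RNAi). daf-16, the FOXO gene under insulin signalling, had -0.28 with dcr-1 RNAi and -0.29 with drsh-1 RNAi. Its mock value also differed, with 18.96 FPKM in dcr-1 RNAi against 23.25 FPKM in mock in the dcr-1 table. In the drsh-1 table daf-16 was at 25.8 FPKM in drsh-1 RNAi against 31.8 FPKM in mock. daf-2, the insulin receptor gene, and mab-3, which represses vit genes in males, were not listed in either table.

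In drsh-1 RNAi 22 regulators were listed, with a median of -0.02. lin-14, a heterochronic gene listed only in the drsh-1 table, had the lowest ratio (-0.85). It was at 2.057 FPKM in drsh-1 RNAi, near the smallest value listed (2.001 FPKM), against 4.50 FPKM in mock. Without the added 1 FPKM it was lower by more than 2-fold. lrp-2, an LDL receptor-related gene reported to promote vit expression, was below mock in both, at 9.03 FPKM in dcr-1 RNAi, 8.34 FPKM in drsh-1 RNAi and 14.2 FPKM in mock. sma-3, a Smad gene of the BMP pathway, was above mock in both (0.63 with dcr-1 RNAi and 0.51 with drsh-1 RNAi), short of 2-fold.

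Among genes of yolk secretion, 14 of 16 were listed, 3 of them higher and 1 lower by 2-fold or more in dcr-1 RNAi (6.71% and 6.53% of all genes), with a median of -0.12. dsc-4, the microsomal triglyceride transfer protein gene that loads lipid onto lipoproteins, was at 26.2 FPKM in dcr-1 RNAi, 12.9 FPKM in drsh-1 RNAi and 10.1 FPKM in mock. Its log2 ratio was 1.29 with dcr-1 RNAi and 0.32 with drsh-1 RNAi. sft-4, the Surf4 cargo receptor gene that exports yolk protein from the endoplasmic reticulum, was at 56.9 FPKM in dcr-1 RNAi, 51.0 FPKM in drsh-1 RNAi and 40.6 FPKM in mock. Both thus had the order of libraries seen for vit-1, vit-3 and vit-4, with sft-4 short of 2-fold. That order is not particular to them, since all 6 secretion genes above mock in dcr-1 RNAi had it. The share of all genes with this order was not counted.

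The folding genes of the endoplasmic reticulum differed from one another. pdi-1, a protein disulfide isomerase gene, was at 348 FPKM in dcr-1 RNAi, 146 FPKM in drsh-1 RNAi and 126 FPKM in mock (1.46 in dcr-1 RNAi). hsp-4, the BiP chaperone gene, was at 227 FPKM in dcr-1 RNAi, 109 FPKM in drsh-1 RNAi and 107 FPKM in mock (1.07 in dcr-1 RNAi). pdi-3, another disulfide isomerase gene, was at 114 FPKM in dcr-1 RNAi, 409.9 FPKM in drsh-1 RNAi and 234 FPKM in mock. Its log2 ratio was -1.03 with dcr-1 RNAi and 0.81 with drsh-1 RNAi, on opposite sides of mock. The COPII coat gene sec-23 (0.84) and the COPII organiser gene tfg-1 (0.98) were above mock in dcr-1 RNAi, short of 2-fold with 1 FPKM added. In FPKM itself tfg-1 was higher by just over 2-fold, at 53.3 FPKM against 26.5 FPKM in mock.

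Of the 21 genes of yolk uptake all were listed, with 1 higher and 1 lower by 2-fold or more in dcr-1 RNAi (6.71% and 6.53% of all genes) and a median of -0.04. rme-2, the oocyte receptor for yolk, was at 63.3 FPKM in dcr-1 RNAi, 84.4 FPKM in drsh-1 RNAi and 85.8 FPKM in mock. Its log2 ratio was -0.43 with dcr-1 RNAi and -0.02 with drsh-1 RNAi, short of 2-fold in both. rme-1, whose EHD-family product recycles endocytosed receptors, was at 140.1 FPKM in dcr-1 RNAi against 64.1 FPKM in mock in the dcr-1 table, and at 80.7 FPKM in drsh-1 RNAi against 68.7 FPKM in mock in the drsh-1 table. Its log2 ratio was 1.12 in dcr-1 RNAi. rabx-5, a gene of the Rab5 exchange factor family, was at 16.5 FPKM in dcr-1 RNAi, 46.5 FPKM in drsh-1 RNAi and 45.8 FPKM in mock (-1.42 in dcr-1 RNAi). In drsh-1 RNAi the log2 ratios of the 21 uptake genes ran from -0.28 to 0.23.

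Each yolk gene was set beside the genes with the most similar pair of log2 ratios against mock, by Euclidean distance over the 2 comparisons. The 8103 candidates were the other genes with equal mock values and a mean of at least 5 FPKM over the 3 libraries. vit-1 was nearest to the cuticle collagen gene col-80 (distance 0.07), which was at 1373 FPKM in dcr-1 RNAi, 313 FPKM in drsh-1 RNAi and 101 FPKM in mock. T05E12.6 (0.29) and F33H12.7 (0.52) came next for vit-1. T05E12.6 was nearest to vit-4 (0.13), followed by folt-2 (0.17), a folate transporter family gene, and ZK6.11 (0.22). vit-3 was nearest to the collagen gene col-98 (0.16), at 378 FPKM in dcr-1 RNAi, 147 FPKM in drsh-1 RNAi and 55.5 FPKM in mock, and then to C30G12.2 (0.22) and the UDP-glucuronosyltransferase gene ugt-41 (0.22).

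The genes nearest to vit-2 were C33C12.3 (0.07), Y48C3A.9 (0.15) and ZK858.1 (0.25), all far below the level of vit-2 itself. C33C12.3 was at 2.83 FPKM in dcr-1 RNAi, 30.4 FPKM in drsh-1 RNAi and 29.6 FPKM in mock. vit-6 had the most distant neighbours, with F58D5.5 at 0.56, the acyl-CoA synthetase gene acs-2 at 0.73 and the aldehyde dehydrogenase gene alh-1 at 0.84. Within a distance of 0.5 there were 2 genes for vit-1, 14 for vit-2, 13 for vit-3, 4 for vit-4 and 0 for vit-6. Genes under 2 FPKM in a library could not be candidates, which bears most on vit-6. Likeness over 3 libraries describes these libraries only.

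The protein-coding genes that flank the 5 yolk genes were taken from the RefSeq gene order of assembly WBcel235, up to 2 on each side. Most have no value here. There were 16 such genes that are not yolk genes, of which 5 were listed in the dcr-1 table and 6 in the drsh-1 table, and all 4 around vit-6 were among those not listed. With 1 FPKM added, 1 of the 5 was at least 2-fold higher in dcr-1 RNAi, where 6.71% of all genes were. In drsh-1 RNAi 0 of the 6 were 2-fold apart on that scale. That 1 gene was spp-14, of the saposin-like family, which lies beside vit-1 and was at 673 FPKM in dcr-1 RNAi, 477 FPKM in drsh-1 RNAi and 322 FPKM in mock. In FPKM itself C42D8.1, near vit-2, was also higher by more than 2-fold in dcr-1 RNAi, at 11.3 FPKM against 5.36 FPKM in mock. ckc-1, near vit-3, was higher by just over 2-fold in drsh-1 RNAi, at 19.5 FPKM against 9.73 FPKM for mock in the drsh-1 table. rgs-7, on the other side of vit-4 from vit-3, was at 17.4 FPKM in dcr-1 RNAi, 26.4 FPKM in drsh-1 RNAi and 19.7 FPKM in mock.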

How the data were processed

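PolyA RNA of 3 libraries was extracted with TRIzol and sequenced on the HiSeq2000 after TruSeq preparation, per the labels' protocols. Tools named by the submitters' processing notes, with no role given, are TopHat2 2.06, Cufflinks, Cuffdiff 2.1.1, SAMtools and CASAVA 1.8.2. The genome build, the annotation and the scaling between libraries are not given in the sources used here. The authors deposited 2 tables without headers, each with FPKM for mock and for 1 RNAi library and their log2 ratio. That deposited log2 ratio equals the ratio of (FPKM + 1) to within 5.0e-12. The RNAi library was read from each table's name, and mock is the column that is the denominator in both (9043 of 9459 shared genes are equal to within 1e-09). FPKM sums over the listed genes were 819608 in dcr-1 RNAi against 668652 in mock, and 709653 in drsh-1 RNAi against 674897 in mock.

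Ratios were computed over all genes with Python 3.11.15, numpy 2.4.6 and pandas 2.3.3, and the calculation was tested on simulated data. There was 1 library per group, so no test was run. Genes were matched by symbol or by the sequence name RefSeq pairs with it. The yolk genes, the pathway lists (regulators, secretion, uptake) and the marker lists (intestine, epidermis, muscle, neuron, oocyte and germ line, sperm, gonadal sheath, coelomocyte) were chosen with earlier results of these data known. Named pathway genes are 12 fixed ones (elt-2, unc-62, ceh-60, mab-3, pqm-1, daf-2, daf-16, rict-1, sgk-1, dsc-4, sft-4, rme-2) and every one at least 2-fold from mock, plus the 3 genes nearest to each yolk gene. lin-14, lrp-2, sma-3, sec-23, tfg-1, the flanking genes and the named markers were chosen after their values were seen. Alternatives changed the pseudocount, the scaling and the filter. Protein and promoter sequences were not used here.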

Additional observations from a re-analysis of the deposited data

How the results depend on the processing

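Single yolk genes kept their direction under every pseudocount (0, 0.1 and 5 FPKM), scaling (median centring, common upper quartile, common summed FPKM) and filter (a mean of at least 5 FPKM, which removed none of the 5) tried. No replicate spread exists, so a shift of over 1.5-fold was taken as a move. Of 105 such values 2 moved by more, both for vit-6 with 5 FPKM added, to -3.20 in dcr-1 RNAi against mock and -3.39 in dcr-1 RNAi against drsh-1 RNAi. Scaling to a common summed FPKM brought the median of all genes in dcr-1 RNAi against mock to -0.22 (0.06 as deposited) and that of the yolk genes to 2.35. Summing vit-1 with vit-2 and vit-3 with vit-4, chosen after the data were seen, turned the median of the yolk genes to -0.67 in dcr-1 RNAi against mock and -0.88 in dcr-1 RNAi against drsh-1 RNAi, and brought it to 0.21 in drsh-1 RNAi against mock. It left 1 unit at least 2-fold higher in each of these comparisons, and 1 lower in both that involve dcr-1 RNAi. The construction leaves 3 units, which limits these counts but does not set the medians. In both comparisons against mock the median is the value of vit-1 with vit-2, at 0.627 times mock in dcr-1 RNAi and 1.15 times mock in drsh-1 RNAi. The log2 ratio of the summed level in dcr-1 RNAi against drsh-1 RNAi was 0.24 and ran from 0.02 to 0.29. Grouping by protein identity was not run. No paired analysis was possible because each group has 1 library. Depth cannot be read from FPKM, and genes under 2 FPKM are missing from the tables.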

Other observations

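Of 9 muscle markers 7 were listed in dcr-1 RNAi, all above mock. Of these 4 were at least 2-fold higher, where 6.71% of all genes were, and their median log2 ratio was 1.12, against 0.06 for all genes. The troponin T gene mup-2 was at 79.2 FPKM in dcr-1 RNAi, 18.8 FPKM in drsh-1 RNAi and 16.3 FPKM in mock. In drsh-1 RNAi 8 muscle markers were listed, with a median of 0.10 and 0 at least 2-fold apart. Of 9 epidermis markers 3 were listed, with medians of 0.02 with dcr-1 RNAi and -0.09 with drsh-1 RNAi. The adult collagen gene col-19 was at 1455.1 FPKM in dcr-1 RNAi, 376 FPKM in drsh-1 RNAi and 339.8 FPKM in mock, and was the 1 epidermis marker at least 2-fold higher in dcr-1 RNAi. lin-26, a zinc finger gene of epithelial fate, was at 22.1 FPKM in dcr-1 RNAi, 8.90 FPKM in drsh-1 RNAi and 24.8 FPKM in mock. Neuron markers, 7 of 9 listed, had medians of -0.02 with dcr-1 RNAi and -0.06 with drsh-1 RNAi, with 0 at least 2-fold apart.

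The oocyte and germ line markers, which mark the tissue that receives yolk, were all 12 listed. Their median log2 ratio was 0.01 with dcr-1 RNAi and 0.16 with drsh-1 RNAi. In dcr-1 RNAi 2 were at least 2-fold lower, where 6.53% of all genes were, spn-4 and the P granule gene pgl-1. spn-4, an RNA-binding protein gene of oocytes and early embryos, was at 83.4 FPKM in dcr-1 RNAi, 561 FPKM in drsh-1 RNAi and 393 FPKM in mock. pgl-1 was at 7.70 FPKM in dcr-1 RNAi, 23.9 FPKM in drsh-1 RNAi and 18.4 FPKM in mock. oma-2, an oocyte maturation gene, was at 494 FPKM in dcr-1 RNAi, 512 FPKM in drsh-1 RNAi and 448 FPKM in mock. The listed sperm markers had medians of 0.73 in dcr-1 RNAi, from 3 genes, and 0.07 in drsh-1 RNAi, from 2 genes. Gonadal sheath markers, 4 of 5 listed, had medians of -0.24 with dcr-1 RNAi and -0.13 with drsh-1 RNAi. The coelomocyte marker cup-4 was the only 1 of 3 listed, with -0.07 with dcr-1 RNAi and 0.18 with drsh-1 RNAi.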
